A study of Mus musculus with 4 samples.

Results

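This account describes 10 MAP kinase feedback genes of the mouse colon, 6 dual-specificity phosphatase genes (Dusp1, Dusp2, Dusp4, Dusp5, Dusp6 and Dusp10) and 4 genes of the Sprouty family (Spry1, Spry2, Spry4 and Spred1). They were taken by name from a deposited table of 22422 genes, and all 10 were found in it. RNA of the distal colon had been sequenced from female mice, 6 weeks old, on day 5 of treatment with 2% dextran sulfate sodium (DSS), a polysaccharide that injures the colonic epithelium. There were 2 wild-type libraries and 2 libraries of Elf4fl/fl-Villin-Cre mice, here called mutant, in which Cre recombinase made from the villin promoter of intestinal epithelium acts on a loxP-flanked Elf4 gene. All 4 libraries came from DSS-treated mice, and colon without DSS was not analysed here. The strain is labelled C57BL/6 for wild type and C57BL/8 for Elf4fl/fl-Villin-Cre mice, while the series text gives C57BL/6 for both. The labels do not say what alleles the wild-type mice carried, or whether replicates were separate animals. The spread that p-values rest on here is that between libraries, and it may be technical in part.

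MAP kinases are activated by phosphorylation on a threonine and a tyrosine, and dual-specificity phosphatases remove both phosphates. Sprouty and Spred proteins act further up, between receptor tyrosine kinases and Raf, and dampen the Ras to ERK route. Many of these genes are switched on by the pathway they restrain, so they form negative feedback loops. In the gut, ERK signalling below the EGF receptor takes part in epithelial growth and repair, and p38 and JNK signalling in inflammation.

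Values are normalised reads, that is, read counts divided by 1 scaling factor per library as deposited. The whole reads behind them came to between 15885028 and 16425954 per library. Elf4, the targeted gene, stood at 1588 and 1938 normalised reads in wild-type colon and at 897 and 758 in the mutant (log2 fold change -1.09 ± 0.16 SE, limma adjusted p = 0.0139). That call was lost in edgeR without wild type replicate 2 (adjusted p = 0.0504). Over the 22050 genes tested, 1512 were higher and 1897 lower in the mutant colon (limma, Benjamini-Hochberg adjusted p under 0.05). The higher share of these calls was 44.4%, against 77.5% when values were rescaled to equal library totals and 29.9% with median scaling. The median log2 fold change of all genes was 0.11 as deposited, 0.40 under library totals, -0.04 with median scaling and 0.02 with quantile scaling, so changes are best read against those values.

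Sequence at the start sites of 8 of the 10 genes was taken from RefSeq (GRCm38.p6), as windows of 250 bases before to 50 after the start, and those of Dusp4 and Spry4 were not used here. Each window was searched on both strands for the ETS core CGGAAG, the AP-1 site TGANTCA, the cyclic AMP response element half-site TGACGT and the CArG box bound by serum response factor. Dusp1 and Dusp5 are shown as examples of genes that rose and whose windows hold several matches, and Dusp6 because it did not pass the test. Spred1 also rose and its window holds several matches, but it is not shown. Matches are in capitals, and each run reads 5′ to 3′ on the strand of the gene. The Dusp1 window is chr17:26508423-26508722 (minus strand), the Dusp5 window chr19:53528895-53529194 (plus strand) and the Dusp6 window chr10:99262981-99263280 (plus strand).
Dusp1: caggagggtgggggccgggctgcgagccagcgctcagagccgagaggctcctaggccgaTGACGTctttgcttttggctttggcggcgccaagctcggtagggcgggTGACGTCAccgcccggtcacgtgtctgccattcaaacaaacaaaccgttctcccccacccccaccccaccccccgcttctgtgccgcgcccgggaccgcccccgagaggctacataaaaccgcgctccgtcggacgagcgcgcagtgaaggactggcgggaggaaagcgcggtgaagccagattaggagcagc
Dusp5: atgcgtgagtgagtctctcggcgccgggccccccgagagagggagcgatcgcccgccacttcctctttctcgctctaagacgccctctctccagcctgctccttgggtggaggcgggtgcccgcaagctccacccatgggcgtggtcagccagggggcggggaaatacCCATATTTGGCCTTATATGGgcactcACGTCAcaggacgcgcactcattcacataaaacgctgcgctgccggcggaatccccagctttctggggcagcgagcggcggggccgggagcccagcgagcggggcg
Dusp6: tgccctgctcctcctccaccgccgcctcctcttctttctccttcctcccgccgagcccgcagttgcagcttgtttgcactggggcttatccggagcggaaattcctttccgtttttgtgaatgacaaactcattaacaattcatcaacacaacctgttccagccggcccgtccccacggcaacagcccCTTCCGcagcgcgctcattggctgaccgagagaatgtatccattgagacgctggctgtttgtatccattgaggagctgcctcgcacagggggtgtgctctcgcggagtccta
The Dusp1 window holds 3 half-site matches counting both strands, of which 2 overlap in a full palindrome. The Dusp5 window holds 2 CArG boxes side by side and 1 half-site. The Dusp6 window holds 1 ETS core, and the window of Spred1 holds 2. The half-site was present in 2 of 8 windows of these genes against 7.51% of all 32851 windows, the CArG box in 1 of 8 against 1.63%, the ETS core in 2 of 8 against 16.9%, and the AP-1 site in 0 of 8 against 7.81%. A match is a description of the letters in the window, not of a bound site.

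Of the 10 genes, 7 rose in the mutant colon and 0 fell by limma, where 6.86% of all tested genes rose and 8.6% fell. All 10 had a mean value above the median of tested genes. Among the 16881 genes with a mean of at least 10, 1760 rose. The 10 were chosen with earlier results of these data known, so their contrast with all genes is not an independent test. For the count of 0, 0 members were lower at an unadjusted p under 0.05 in limma, as were 3395 of all 22050 genes. edgeR and DESeq2 also called 0 of the 10 lower. Over all genes edgeR called 13.5% lower, and DESeq2 2574 of 16750. The genes that rose were Dusp1, Dusp2, Dusp5 and all 4 Sprouty family genes, by 0.74 to 1.77 on the log2 scale. Dusp4, Dusp6 and Dusp10 stood between -0.07 and 0.07 and did not pass. The median log2 fold change of the 10 was 1.002, against 0.11 for all genes tested. edgeR and DESeq2 on the recovered reads called 7 of the 10 higher, against 9.88% and 9.51% of the genes they tested. In 7 of the 10 the lower mutant library lay above the higher wild-type library, which held for 35% of all tested genes, and in 0 of the 10 was the order reversed (27.2% of all). Under quantile scaling 6 of the 10 passed, with Spry1 just outside (adjusted p = 0.0506), and 1230 of all 22050 genes rose. In edgeR, calls over all genes fell whichever library was dropped, furthest without wild type replicate 2 (counts in the last section). With 1 library left out, edgeR called 6, 6 and 6 of the 10 without wild type replicate 1, mutant replicate 1 and mutant replicate 2, but 3 without wild type replicate 2. limma called 0 of the 10 in each of these 4 fits, where it has 1 residual degree of freedom and calls 0 genes in all (4 to 8 of the 10 were higher at an unadjusted p under 0.05).

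**Figure D1:**
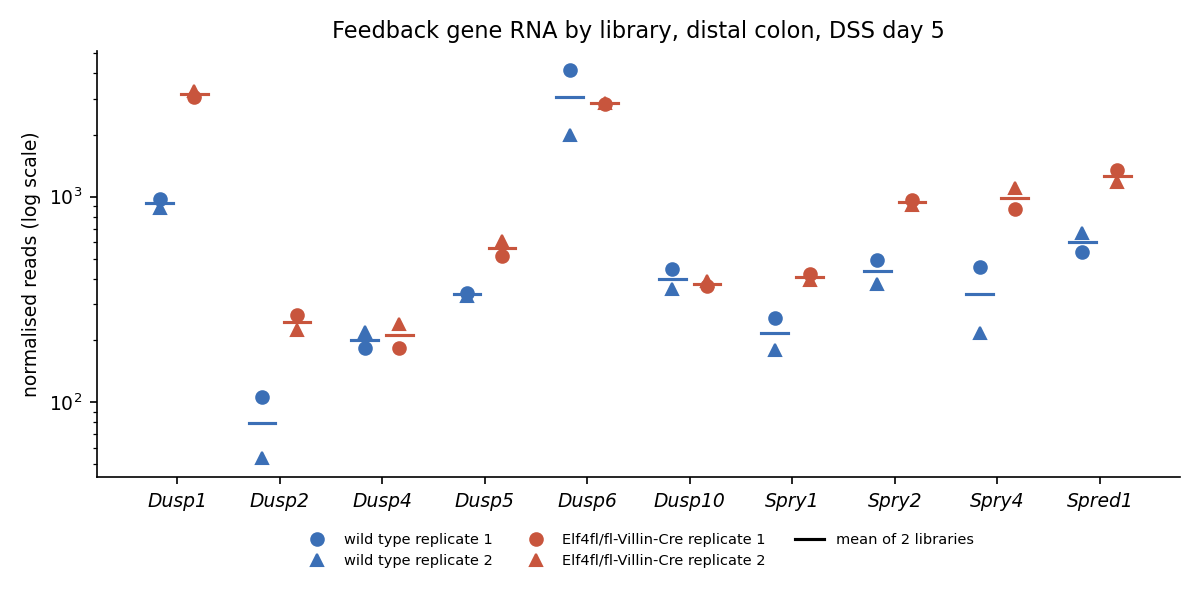
Normalised reads (log axis) of the 10 feedback genes in each of the 4 libraries, with circles for replicate 1, triangles for replicate 2 and bars for the mean of 2 libraries. Both Elf4fl/fl-Villin-Cre libraries lie above both wild-type libraries for 7 genes, while the wild-type libraries of Dusp6, at 4123 and 2004, lie on either side of the others.

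Dusp1 (ENSMUSG00000024190.6, chromosome 17, 26505590 to 26562128 in mm10) encodes an inducible nuclear phosphatase of p38, JNK and ERK. It stood at 974 and 881 normalised reads in wild-type colon and at 3061 and 3269 in the mutant. The groups lay far apart and each pair of replicates close together. The means were 928 ± 66.1 and 3165 ± 147 (SD, n = 2 each), or 3.41-fold apart. Dusp1 rose, as a log2 fold change, by 1.77 ± 0.13 (SE; limma adjusted p = 0.00636). It kept its edgeR call without each of the 4 libraries in turn (adjusted p = 0.000592 to 0.0367), at 1.68 to 1.81. Its window, shown above, is the one with the palindromic response element. That window lies inside the annotated span of the gene, which reaches further upstream. The same holds for the Dusp10 window, while the Spred1 window ends before the annotated span of Spred1 begins.

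Dusp2 (ENSMUSG00000027368.6, chromosome 2, 127336159 to 127338376) encodes a nuclear phosphatase best known from activated leukocytes. It had 106 and 53.7 normalised reads in wild type against 265 and 225 in the mutant colon. The groups did not overlap, and the wild-type libraries differed from each other 1.97-fold. Its lowest library held 51 reads, the fewest of any of the 10 genes in any library. It rose by 1.68 ± 0.34 (limma adjusted p = 0.0265). Dropping wild type replicate 2 ended its edgeR call (1.19, adjusted p = 0.0638; 0.011 to 0.0638 over the 4 such fits).

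Dusp4 (ENSMUSG00000031530.6, chromosome 8, 34807297 to 34819894), a nuclear phosphatase closely related to Dusp1, had 183 and 219 normalised reads in wild-type colon against 185 and 241 in the mutant. The groups overlapped. Its log2 fold change was 0.07, with a 95% interval of -0.43 to 0.58 (limma adjusted p = 0.838), and edgeR gave 0.05. Its sign turned with the scaling, at -0.08 with median and -0.05 with quantile scaling.

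Dusp5 (ENSMUSG00000034765.6, chromosome 19, 53529109 to 53542431) encodes a nuclear phosphatase specific for ERK. Its wild-type libraries stood at 342 and 329 normalised reads and its mutant libraries at 515 and 610. The groups did not overlap, and the wild-type replicates were within 1.04-fold of each other. Dusp5 rose by 0.74 ± 0.15 (limma adjusted p = 0.0275), a 1.68-fold difference of the means. edgeR called it with all libraries (adjusted p = 0.0199) but, of the 4 fits that each drop a library, only that lacking mutant replicate 1 kept the call (0.0335 to 0.086 over the 4). An antisense transcript, AC137853.2, shares 547 exonic bases with Dusp5 in the annotation and is not among the genes analysed here. The counting is not stated to use strand, so reads of the 2 transcripts cannot be told apart.

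Dusp6 (ENSMUSG00000019960.8, chromosome 10, 99263231 to 99267489) encodes the cytoplasmic ERK phosphatase that is widely read as a marker of ERK output. It was at 4123 and 2004 normalised reads in wild-type colon and at 2832 and 2856 in the mutant. The wild-type libraries differed 2.06-fold and enclosed the mutant values. The log2 fold change was -0.02, with a 95% interval of -0.80 to 0.77 (limma adjusted p = 0.980), so a change of up to 1.7-fold either way lay within the interval. Its sign depended on the wild-type library kept, at 0.50 with replicate 1 dropped and -0.54 with replicate 2 dropped, and it turned to 0.30 under library totals and 0.29 with quantile scaling.

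Dusp10 (ENSMUSG00000039384.8, chromosome 1, 184013302 to 184075636), a phosphatase of JNK and p38, had 443 and 354 normalised reads in wild type against 366 and 388 in the mutant colon. The mutant values lay within the wild-type range. The log2 fold change was -0.07 (95% interval -0.48 to 0.34, limma adjusted p = 0.805), and 0.24 under library totals. The intervals of Dusp4, Dusp6 and Dusp10 do not show that these genes were equal between the genotypes. The upper ends for Dusp4 and Dusp10 lie below the log2 fold change of Dusp5, the smallest among the genes that rose. The interval of Dusp5, 0.37 to 1.11, overlaps that of Dusp4 and begins just above the upper end of Dusp10. The difference between genes was not tested.

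**Figure D2:**
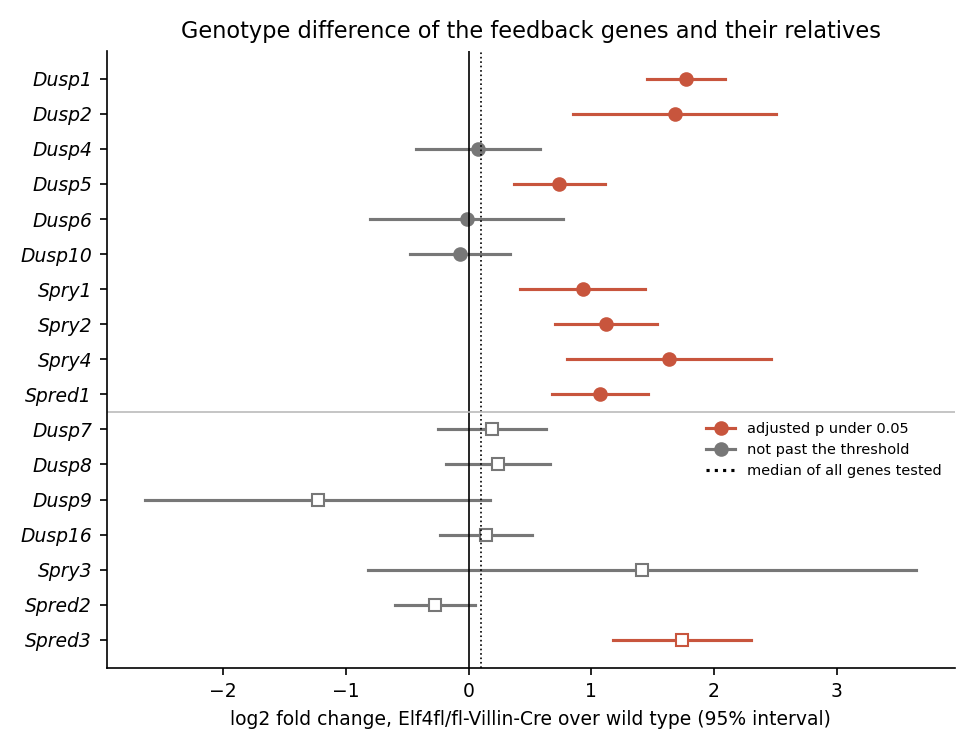
Log2 fold change (Elf4fl/fl-Villin-Cre over wild type) with its 95% interval from limma, for the 10 feedback genes (filled circles) and, below the grey line, the other typical MAP kinase phosphatases and Sprouty family genes (open squares). Red marks an adjusted p under 0.05, and the dotted line is the median of all genes tested, 0.11. Dusp1 has the narrowest interval among the red circles, 1.45 to 2.09.

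Among the Sprouty genes, whose products bind adaptors and kinases of the Ras route, Spry1 (ENSMUSG00000037211.12, chromosome 3, 37639947 to 37644598) had 256 and 179 normalised reads in wild-type colon against 423 and 395 in the mutant. The groups did not overlap. Spry1 rose by 0.93 ± 0.21 (limma adjusted p = 0.0349), but missed the threshold in edgeR when wild type replicate 2 or mutant replicate 1 was dropped (0.0304 to 0.0954 over the 4 such fits). Gm42922 overlaps 710 exonic bases of Spry1 on the other strand, and was listed at 0 in both wild-type libraries and at 4.07 and 5.02 normalised reads in the others.

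Spry2 (ENSMUSG00000022114.4, chromosome 14, 105891947 to 105896819), a much studied brake on FGF and EGF receptor signals, was at 494 and 378 normalised reads in wild-type colon and at 968 and 915 in the mutant. The lower mutant library thus lay well above the higher wild-type one. The means were 436 ± 81.7 and 941 ± 37.3 (SD, n = 2 each), and the log2 fold change was 1.12 ± 0.17 (SE; limma adjusted p = 0.0141). Spry2 was called by edgeR without each library in turn (adjusted p = 0.00648 to 0.049).

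Spry4 (ENSMUSG00000024427.6, chromosome 18, 38586247 to 38601415) is another inhibitor of the Ras to ERK route. Its wild-type libraries held 455 and 218 normalised reads and its mutant libraries 875 and 1096. The groups did not overlap, although the wild-type pair differed 2.08-fold. Spry4 rose by 1.63 ± 0.34 (limma adjusted p = 0.0291), reaching 2.16 with wild type replicate 1 dropped and 1.10 with wild type replicate 2 dropped, and the edgeR call ended in the latter case (adjusted p = 0.0505; 0.0117 to 0.0505 over the 4 such fits).

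Spred1 (ENSMUSG00000027351.14, chromosome 2, 117121374 to 117182279) encodes a Sprouty-related protein that brings neurofibromin, an inactivator of Ras, to the membrane. It went from 538 and 665 normalised reads to 1351 and 1176. Here wild type replicate 1 was the lower of its pair, unlike in Spry1, Spry2 and Spry4. Spred1 rose by 1.07 ± 0.16 (limma adjusted p = 0.0141), a 2.10-fold difference of the means, and kept its edgeR call without each library in turn (adjusted p = 0.00551 to 0.0409).

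Wild type replicate 1 was above replicate 2 in 8 of the 10 genes, against 51.0% of all tested genes. The pair differed 1.97-fold to 2.08-fold for Dusp2, Dusp6 and Spry4. In the mutant pair replicate 1 was the higher in 4 of 10, against 45.4% of all tested genes, and the pair differed at most 1.30-fold, for Dusp4.

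Levels of different genes were compared per length, as reads over exonic length scaled to 1 total in every library (TPM). In wild type Dusp6 was the most abundant of the 6 phosphatase genes, at 220 and 111 TPM, followed by Dusp1 at 49.2 and 46.3. Dusp5 (23.1 and 23.2), Dusp10 (24.4 and 20.3) and Dusp4 (11.2 and 13.9) came next, and Dusp2 (8.85 and 4.67) was last. Dusp5 and Dusp10 overlapped in that order. In the mutant colon Dusp1 stood at 204 and 204 TPM and Dusp6 at 200 and 189, so Dusp1 lay just above Dusp6 in both libraries. That order rests on lengths that join all annotated exons of a gene, 3311 bases for Dusp1 and 3132 for Dusp6. Other choices of length were not tried. The ratio of Dusp1 to Dusp6 within a library, which does not depend on the 1 factor a library was scaled by, was 0.224 and 0.416 in wild type and 1.02 and 1.08 in the mutant colon. An exact permutation test of 2 against 2 libraries cannot go below p = 0.333 (two-sided). The ratio is given as values, and its difference was not tested.

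As a share of the 6 phosphatase genes per length, Dusp1 took 14.6% and 21.1% in wild type and 39.2% and 39.9% in the mutant colon. Dusp6 took 65.4% and 50.7% against 38.4% and 36.9%. The Dusp2 share was 2.63% and 2.13% against 5.61% and 4.54%. Spry2 was the most abundant in every library, with 47.4% and 46.9% of the 4 genes in wild type and 46.7% and 44.8% in the mutant colon. The Spry4 share was 19.1% and 11.9% against 18.6% and 23.6%, and that of Spred1 15.9% and 25.3% against 20.1% and 17.7%, so both overlapped between the genotypes. Spry1 took 17.6% and 15.9% against 14.7% and 13.9%.

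**Figure D3:**
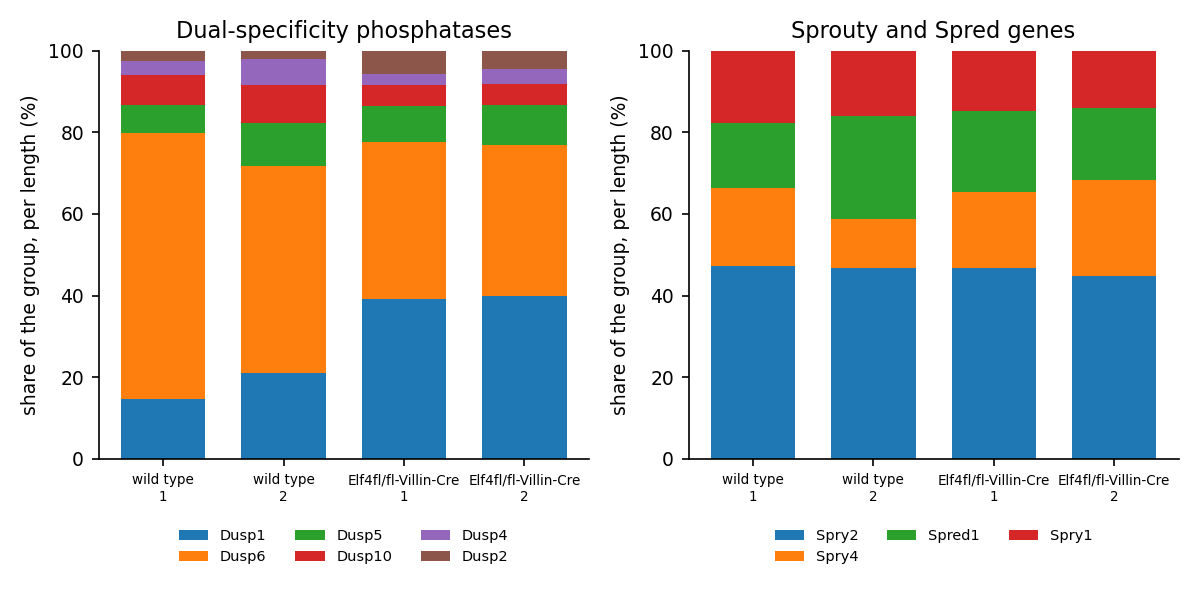
Share (%) of each gene in the summed TPM of the 6 phosphatase genes (left) and of the 4 Sprouty family genes (right), 1 bar per library. Dusp1 goes from 14.6% and 21.1% in the wild-type bars to 39.2% and 39.9% in the Elf4fl/fl-Villin-Cre bars, while Spry2 lies between 44.8% and 47.4% in all 4.

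The relatives of these genes, taken as whole families, mostly did not pass, as was so for most genes. Of all genes tested, 15.5% passed in either direction and 6.86% as higher. Of the other 4 typical MAP kinase phosphatases, 0 passed limma (0 at an unadjusted p under 0.05), at a median of 0.17. edgeR tested 3 of the 4, without Dusp9, and called 0. Dusp7 had a log2 fold change of 0.19, Dusp8 of 0.24 and Dusp16 of 0.14, and Dusp9, with 2.51 to 11.6 normalised reads, of -1.23. Of the 12 atypical dual-specificity phosphatase genes tested of 13 listed, 1 rose. That was Dusp22, from 122 and 122 to 221 and 208 normalised reads (log2 fold change 0.80, limma adjusted p = 0.0315), which edgeR called in 0 of the 4 fits without 1 library (adjusted p = 0.0683 to 0.135) and limma did not call with median or quantile scaling. In the Sprouty family Spred3 also rose, from 203 and 132 to 569 and 528 normalised reads (log2 fold change 1.74 ± 0.23, limma adjusted p = 0.0115). Spred2 (-0.27) and Spry3 (1.42, at 1.03 to 15.5 normalised reads) did not pass.

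Ligands of the receptors that feed this pathway included some of the largest differences. Of 15 EGF, FGF and HGF family ligands, 7 rose and 1 fell, where 6.86% of all genes rose and 8.6% fell. The median log2 fold change of the 15 was 1.11, against 0.11 for all genes. Ereg, the EGF receptor ligand epiregulin, rose by 4.52 ± 0.31, Fgf7, a growth factor that mesenchyme makes for epithelium, by 2.50 ± 0.18, and Hgf, the ligand of Met, by 2.87 ± 0.22 (limma adjusted p = 0.00636, 0.00636 and 0.00658). Tgfa, which encodes another EGF receptor ligand, fell by 1.45 ± 0.28 (limma adjusted p = 0.0242), but edgeR no longer called it once wild type replicate 2 was dropped (adjusted p = 0.085).

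The cascade between receptor and ERK went both ways. Among 24 genes, 3 went up and 4 down past the test (edgeR 3 and 5), where 6.86% of all genes rose and 8.6% fell. The median was -0.13, or 0.18 under library totals. The serine/threonine kinase gene Braf rose by 0.71, the receptor gene Egfr by 0.63 and Fgfr1 by 0.78 (limma adjusted p = 0.0202, 0.0299 and 0.034). None of these calls held in every edgeR fit without 1 library: Egfr was called in 0 of 4, Braf in 1 and Fgfr1 in 2. The receptor genes Erbb2 and Erbb3 fell by 1.41 and 1.63 and Map2k1, the kinase of ERK, by 0.95 (limma adjusted p = 0.0104, 0.0138 and 0.0162). Dropping wild type replicate 2 cost the edgeR calls of Erbb3 (adjusted p = 0.0507) and Map2k1 (adjusted p = 0.0529). The fourth, Mapk3 (ERK1), named after its values were seen, fell by 1.03 (limma adjusted p = 0.0196). With library totals 6 of the 24 rose and 4 fell, and with median scaling 2 rose and 7 fell.

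In the JNK and p38 cascade 2 of 16 rose and 2 fell, where 6.86% of all genes rose and 8.6% fell. The median was 0.06 (-0.09 with median scaling). The counts were 6 higher and 2 lower under library totals, 1 and 4 with median scaling, 2 and 3 with quantile scaling, and 1 and 4 in edgeR. The p38 genes moved in opposite directions: Mapk13 fell by 1.44 and Mapk11 rose by 1.20 (limma adjusted p = 0.01 and 0.0211). Mapk12, the other rise, was at 0.69 (limma adjusted p = 0.0499), and edgeR and DESeq2 did not call it (adjusted p = 0.0516 and 0.0873). Mapkapk3, a kinase below p38, fell by 0.93 (limma adjusted p = 0.0181). Dropping wild type replicate 2 cost the edgeR calls of Mapk11 (adjusted p = 0.0787) and Mapkapk3 (adjusted p = 0.0593).

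Transcripts known to respond to ERK were higher in 8 of 18 cases and lower in 2, with a median of 0.85. The early transcription factor genes Egr1 and Egr3 rose by 2.78 ± 0.27 and 2.30 ± 0.28, and Ier3, an early response gene, by 2.42 ± 0.18 (limma adjusted p = 0.0083, 0.0101 and 0.00646). Ccnd1, which encodes cyclin D1, fell by 1.53 and Emp1, a membrane protein gene, by 0.92 (limma adjusted p = 0.0118 and 0.0278). Emp1 missed the edgeR threshold when wild type replicate 2 or mutant replicate 2 was dropped (adjusted p = 0.104 and 0.0631). Of 12 other brakes on receptors and Ras, 1 rose and 1 fell (6.86% and 8.6% of all genes), with a median of 0.23. Rasa3, a Ras GTPase-activating protein gene, rose by 0.87 and Lrig3 fell by 1.08 (limma adjusted p = 0.0347 and 0.0139). Rasa3 missed it when wild type replicate 2 or mutant replicate 1 was dropped (adjusted p = 0.11 and 0.0916), and Lrig3 when wild type replicate 2 was (adjusted p = 0.051). Under library totals the counts became 12 higher and 1 lower of the ERK-responsive transcripts, and 4 and 1 of the brakes. By list, the rises were thus 7 of 10 for the feedback genes, 7 of 15 for ligands and 8 of 18 for ERK-responsive transcripts. They were 3 of 24 for the receptor to ERK cascade, 2 of 16 for the JNK and p38 cascade and 1 of 12 for the other brakes. Among the relatives they were 0 of 4 typical phosphatases, 1 of 12 atypical ones and 1 of 3 other Sprouty family genes. The share of all genes was 6.86%, and the differences between lists were not tested.

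**Figure D4:**
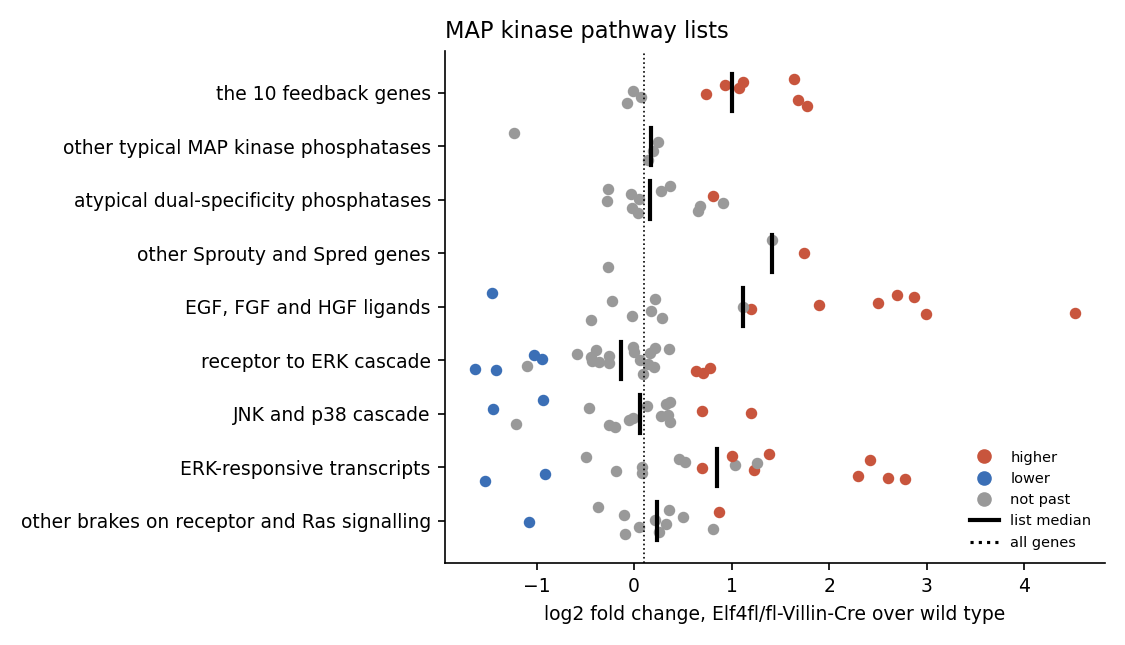
Log2 fold change (Elf4fl/fl-Villin-Cre over wild type) of each gene in 9 MAP kinase pathway lists, coloured by limma call, with the list median as a black bar and the median of all genes, 0.11, as a dotted line. The median of the 10 feedback genes lies between Spry1 (0.93) and Spred1 (1.07), and that of the receptor to ERK cascade at -0.13.

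The tissue was sequenced unsorted, so more cells of a type and more RNA per cell cannot be told apart. Markers of several cell types moved in the same libraries. Their counts stand beside 6.86% of all genes higher and 8.6% lower. All 10 epithelial markers fell (7 with quantile scaling), with a median log2 fold change of -1.49, from a summed 294484 and 357273 normalised reads in wild type to 96247 and 120217 in the mutant colon. Of 8 neutrophil markers 7 rose. All 8 summed to 13742 and 14088 in wild type against 15722 and 16905. Most of that sum was Ly6g, which had 9105 to 13520 normalised reads, a log2 fold change of -0.40 and did not pass. The other 7 summed to 1078 and 568 in wild type against 6617 and 6119. All 8 monocyte and macrophage markers rose, with a median of 1.18 (8890 and 7328 against 26477 and 16400 summed), and 6 and 7 of them with median and quantile scaling. In the endothelial list 2 of 6 rose (2435 and 1872 against 3670 and 3187), in the fibroblast list 3 of 6 (25601 and 21390 against 44761 and 49494), in the erythroid list 4 of 5 (244 and 693 against 2419 and 2807) and among B and plasma cell markers 1 of 6 (20878 and 15571 against 36679 and 35406). Under library totals these counts were 5, 5, 5 and 3, and with median scaling 1, 2, 3 and 1. Of 8 T and NK cell markers 0 passed limma, and edgeR, which tested 7 of them, called 0 (1314 and 825 against 1325 and 1094). In limma 1 of the 8 was at an unadjusted p under 0.05, and 1 was called under library totals. Of 6 smooth muscle markers 1 fell, or 0 under library totals and quantile scaling and 3 with median scaling (129496 and 99841 against 59273 and 88877). No marker was at 0 in any library. The part of these cell types in the feedback gene differences was not tested.

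**Figure D5:**
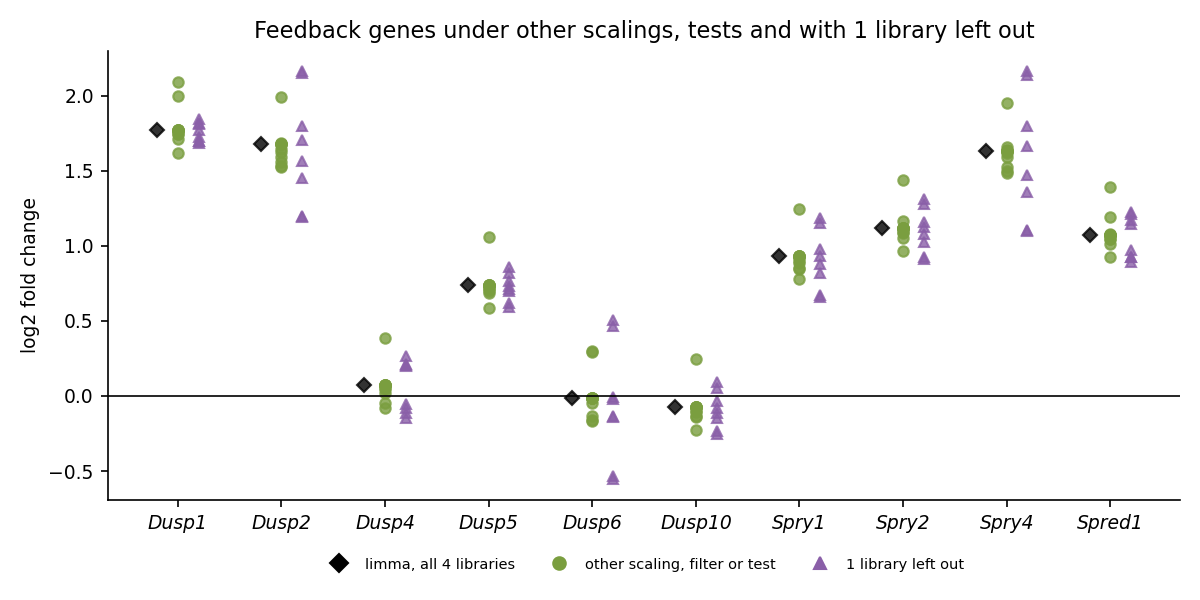
Log2 fold change of the 10 feedback genes with all 4 libraries in limma (black diamonds), under other scalings, filters and tests (green circles) and with 1 library left out (purple triangles). The 7 genes that rose stay above 0 in every setting run, and Dusp4, Dusp6 and Dusp10 have values on both sides of 0. For those 7 the groups did not overlap, so leaving out 1 library in limma could not change the sign.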

How the data were processed

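RNA of the distal colon was sequenced in 4 libraries, 2 per genotype, grouped by the genotype label and numbered by title. The deposited table holds a normalised signal per gene. Every value was a whole multiple of its library's smallest value above 0 (100% of values, tolerance 0.01), so the signal is a read count over 1 factor per library, and whole reads were recovered from it. One read was worth 1.03 and 1.05 in wild type and 0.814 and 0.836 in the others. Per the submitters' processing notes reads were placed on mm10. The aligner, counter and scaling tool were not given in the sources used here, nor was strandedness. Symbols, positions and exonic lengths came from GENCODE mouse release 21 (22376 of 22422 identifiers matched, versions ignored).

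The test was limma 3.58.1 with a variance trend (R 4.3.3), fitted to log2(value + 1), with genotype as the only term, Benjamini-Hochberg adjusted at 0.05 over the 22050 genes with a mean of at least 1. It had 2 residual and 4.06 prior degrees of freedom. The log2(value + 1) scale understates changes of low genes. edgeR 4.0.16 and DESeq2 1.42.0 on the recovered reads, other scalings, pseudocounts and filters, a replicate block and leaving out each library were the alternatives. The scripts were tested on simulated data. Members and gene lists were chosen with earlier results of these data known. Named are the 10 members, Elf4, lists of 4 or fewer genes in full, and in other lists up to 3 genes in each direction by smallest p among those past the threshold.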

Additional observations from a re-analysis of the deposited data

How the results depend on the processing

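The 7 feedback genes that rose kept their direction in all 20 other settings run, but many of these could not have turned it. Both mutant libraries lay above both wild-type ones for these genes, so leaving out 1 library in limma could not change the sign. Other filters, the variance trend and the replicate block leave the limma log2 fold change as it is. Counts over all genes moved with the scaling, to 4069 higher and 1178 lower under library totals. Without a variance trend limma called 0 genes higher, 0 lower and 0 of the 10 members (3326, 2762 and 7 at an unadjusted p under 0.05). With 1 library left out the counts ran from 0 to 1551 higher, from 0 to 2126 lower, and from 0 to 6 of the 10 members higher. The counts of 0 are those of limma, which then has 1 residual degree of freedom (1673 to 3386 higher, 2056 to 2803 lower and 4 to 8 members higher at an unadjusted p under 0.05), while edgeR called 332 to 1551 (815 without Elf4fl/fl-Villin-Cre replicate 1), 551 to 2126 and 3 to 6, each lowest without wild type replicate 2. The labels do not say whether the replicate numbers mark pairs. Deviations of same-numbered libraries correlated at 0.10 across genes, which cannot settle it with 2 libraries per group. The replicate block gave 2456 higher and 2977 lower in edgeR, against 1713 and 2341 without it. In limma it gave 2066 and 2445, against 1512 and 1897, and 7 members stayed called in both. Signs turned for genes that had not passed. Dusp4 was at -0.077 with median and -0.048 with quantile scaling, Dusp6 at 0.30 under library totals and 0.29 with quantile scaling, Dusp10 at 0.24 and Spred2 at 0.043 under library totals, and Dusp16 at -0.0083 with median scaling. With 1 library left out Dusp4 ran from -0.15 to 0.26 (below 0 also at -0.055, -0.082 and -0.12), Dusp6 from -0.55 to 0.50 (0.47 in edgeR), Dusp10 from -0.25 to 0.091 (0.054 in edgeR) and Dusp16 from -0.035 to 0.30 (-0.011 in limma). The cause of these moves was not tested.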
